A study of Mus musculus with 18 samples.

Results

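The genes described here are 9 enzymes that handle superoxide and peroxides: the glutathione peroxidases Gpx1, Gpx3, Gpx4, Gpx7 and Gpx8, the superoxide dismutases Sod1, Sod2 and Sod3, and catalase (Cat). They were taken by name from an expression table of 46983 genes, and all 9 were among the 13815 genes that reached 1 FPKM in at least 3 of 18 RNA sequencing libraries. The authors' unit, FPKM, is the number of sequenced fragments per kilobase of a gene, scaled to the size of its library. The libraries came from lipochondrocytes, the fat-storing cells of mouse ear cartilage, at postnatal days 8, 10, 13, 21 and 33 (P8 to P33), and from P33 adipocytes of inguinal fat, with 3 libraries per group. Per the labels, all mice were C57BL/6 and carried Wnt1-Cre2 and TdTomato. The Wnt1 promoter is active in the neural crest, so TdTomato marks cells of that lineage. P8, P10 and P13 cells were released with collagenase II and sorted for high TdTomato. The later lipochondrocytes (P21, P33) and the adipocytes were taken as the fraction that floated on centrifugation. Age and isolation therefore change together between P13 and P21 and cannot be told apart there. The labels number the libraries without saying that they came from separate animals or pools, so p-values measure the spread between these libraries, which may be technical.

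Superoxide dismutases turn superoxide, a by-product of respiration and of oxidases, into hydrogen peroxide. The glutathione peroxidases Gpx1, Gpx3 and Gpx4 then reduce hydrogen peroxide or lipid peroxides with glutathione as the electron donor. Catalase breaks hydrogen peroxide down without a donor. The enzymes are divided by place: Sod1 works in the cytosol, Sod2 in mitochondria and Sod3 outside the cell, and catalase works in peroxisomes. Gpx1 is the abundant cytosolic peroxidase, Gpx3 is secreted, and Gpx4 reduces peroxides of membrane lipids and guards against ferroptosis. Gpx7 and Gpx8 reside in the endoplasmic reticulum, where they use peroxide during the folding of secreted proteins. Both chondrocytes, which secrete a large matrix, and cells that hold a lipid droplet are settings in which these enzymes have been studied.

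The 5 peroxidases differ at their active site, and the stretch of coding sequence around it is shown because the levels of the 2 kinds are summed and compared below. Each line gives 27 bases of the gene's GENCODE M21 transcript 201, 5′ to 3′ on the coding strand, with the active-site codon in capitals. Codon numbers count along that transcript and need not hold for others. Gpx4, for example, has 7 annotated transcripts.
Gpx1, codon 47 of 201: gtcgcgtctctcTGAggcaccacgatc
Gpx3, codon 73 of 226: gtagccagctacTGAggtctgacagac
Gpx4, codon 129 of 253: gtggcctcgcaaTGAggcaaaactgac
Gpx7, codon 56 of 186: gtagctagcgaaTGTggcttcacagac
Gpx8, codon 79 of 209: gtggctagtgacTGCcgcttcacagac
In Gpx1, Gpx3 and Gpx4 the capitals are an in-frame TGA, which is annotated as selenocysteine and is read as that amino acid in place of a stop. In Gpx7 and Gpx8 the aligned codon is TGT or TGC, a cysteine. On GRCm38 the windows lie at chr9:108339439-108339465 (plus strand) for Gpx1, chr11:54907244-54907270 (plus) for Gpx3 and chr10:80054725-80054751 (plus) for Gpx4. Those of Gpx7 and Gpx8 lie at chr4:108403418-108403444 (minus) and chr13:113045649-113045675 (minus). All 5 windows are in coding exons.

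The cells carried the markers their labels imply. The summed FPKM of 10 chondrocyte markers ran from 14630 to 28207 in the 15 lipochondrocyte libraries and from 1.35 to 2.08 in adipocytes, where Acan, Col9a1, Col9a2 and Col9a3 were listed at 0. Cytl1 carried most of that sum at P33 (16368.05 to 20673.32 FPKM), while Col2a1 went from 4370.18 to 6549.36 at P8 to 188.99 to 244.53 at P33, and 7 of the 10 markers were called lower and 1 higher between these stages. The sum of 10 adipocyte markers ran from 4.89 to 28.7 in lipochondrocytes and from 90825 to 96664 in adipocytes. Markers of other cells were present too. In the adipocyte libraries endothelial markers summed to 813 to 871 FPKM, macrophage markers to 841 to 915 and erythroid markers to 962 to 1031. At P33 these sums were 9.52 to 12.8, 38.2 to 70.2 and 43.6 to 147. Fibroblast and perichondrium markers summed to 5154 to 9293 at P33 and 399 to 414 in adipocytes. Col1a1 and Col1a2 carried most of the P33 sum (means of 2853 and 3324 FPKM). Of these 10 markers, 5 were called higher and 2 lower at P33 than in adipocytes, and 5 and 4 with libraries rescaled to their nuclear genes. The part of these cells in the differences below was not tested. Libraries held 12461965 to 27640142 reads, of which 73.19% to 84.44% aligned. Mitochondrial genes took 3.67% to 5.96% of FPKM in lipochondrocytes and 23.3% to 25.5% in adipocytes, and every FPKM of a nuclear gene is relative to that. Fewer cells of a type and less RNA per cell cannot be told apart in these bulk libraries.

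Gpx1 (ENSMUSG00000063856.7, chromosome 9:108338903 to 108340343) became the most abundant of the 9 genes in mature lipochondrocytes. Its P8 libraries held 285, 346.37 and 288.76 FPKM, its P10 libraries 392.86, 355.11 and 440.79, and its P13 libraries 339.29, 410.71 and 478.94. At P21 the values were 1027.99, 1684.16 and 1653.07, and at P33 they were 2986.6, 2741.09 and 3414.58, beside 1609.28, 1555.8 and 1663.46 in adipocytes. Every P33 library was above every library of the other 5 groups. In the order of group means, P10 overlapped P13 and P21 overlapped the adipocytes, and the other neighbours lay apart. By mean FPKM, Gpx1 had rank 349 of all genes at P8 and rank 57 at P33. Changes from here on are differences of log2(FPKM + 1) with their standard error (SE), tested with limma and adjusted by Benjamini-Hochberg over all genes tested; a gene is called at an adjusted p below 0.05. Gpx1 rose by 1.80 from P13 to P21 (SE 0.18, adjusted p = 2.35e-06) and by a further 1.10 from P21 to P33 (SE 0.18, adjusted p = 0.00137), and P33 stood 0.92 above adipocytes (SE 0.18, adjusted p = 3.70e-04). That last difference was 1.26 under median-of-ratios scaling and 0.41 with libraries rescaled to their nuclear genes (adjusted p = 0.0473). From P8 to P33 its mean went from 307 ± 34 to 3047 ± 340 (SD, n = 3), a 9.94-fold difference.

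Gpx4 (ENSMUSG00000075706.10, chromosome 10:80047166 to 80056439), the lipid peroxide reductase, also rose between P13 and P21, at a lower level. Its P8, P10 and P13 libraries held 116.96 to 200.28 FPKM. The P21 libraries held 365.54, 614.95 and 712.44, the P33 libraries 647.16, 663.62 and 1018.91, and the adipocyte libraries 2218.6, 2151.95 and 2320.52. Adipocytes were thus above every lipochondrocyte library, whereas P21 and P33 overlapped. Gpx4 rose by 1.56 from P13 to P21 (SE 0.22, adjusted p = 5.76e-05), and its difference of 0.48 from P21 to P33 was not called (SE 0.22, adjusted p = 0.199). P33 stayed 1.55 below adipocytes (log2 difference -1.55, SE 0.22, adjusted p = 1.43e-05). Gpx1 was 2.22 to 2.62 times as abundant as Gpx4 in group means of this ratio from P8 to P21, 4.03 ± 0.64 times at P33, and 0.722 ± 0.0042 times in adipocytes. A transcript match found Gpx4-ps2, a transcribed pseudogene alike in 99.7% of 733 bases, and AC122253.3, alike in 95.1% of 510 bases. Neither is a row of the expression table, and how their reads were assigned is not stated. Gpx4 levels are therefore uncertain by an amount that cannot be given.

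Gpx3 (ENSMUSG00000018339.11, chromosome 11:54902453 to 54910377), the secreted peroxidase, was far higher in the adipocyte libraries than in any lipochondrocyte library. The adipocyte libraries held 533.65, 521.95 and 524.56 FPKM, and the 12 lipochondrocyte libraries from P8 to P21 held 1.18 to 3.88. The P33 libraries held 36.04, 6.99 and 19.41 FPKM, each above every younger library and each far below the adipocytes. Between P21 and P33 the rise was 2.60 (SE 0.39, adjusted p = 5.47e-04), the largest SE among the 9 genes, and P33 was below adipocytes by a log2 difference of -4.86 (SE 0.39, adjusted p = 2.28e-08). The size of the rise depended on the P33 libraries, at 2.09 without P33 replicate 1 and 3.20 without P33 replicate 2, and was called in both. In the same 3 P33 libraries the adipocyte markers summed to 14.6, 11.9 and 12.9 FPKM, with Lep and Adrb3 at 0, and the 9 macrophage markers to 68.8, 38.2 and 70.2. In the adipocyte libraries these sums were 90825 to 96664 and 841 to 915, and the mean of Gpx3 at P33 was 0.0395 of its adipocyte mean. The part of either cell type in the Gpx3 values at P33 was not tested.

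Gpx7 (ENSMUSG00000028597.11, chromosome 4:108400390 to 108406961) was the peroxidase that stood furthest above adipocytes. From P8 to P21 its 12 libraries held 46.46 to 88.73 FPKM, the P33 libraries held 33.25, 35.77 and 51.81, and the adipocytes held 9.11, 10.93 and 11.37. All 15 lipochondrocyte libraries were above all adipocyte libraries, and among the lipochondrocyte groups each overlapped the next in the order of means. Gpx7 fell by 0.90 from P21 to P33 (SE 0.19, adjusted p = 0.00609) and was still 1.83 above adipocytes at P33 (SE 0.19, adjusted p = 4.10e-07).

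Gpx8 (ENSMUSG00000021760.3, chromosome 13:113042753 to 113046410) held 28.6 to 43.92 FPKM in the 12 libraries from P8 to P21, and 20.48, 21.1 and 22.3 at P33. It fell by 0.80 from P21 to P33 (SE 0.14, adjusted p = 0.0026). The adipocytes held 19.12, 18.24 and 21.66, which overlapped P33, and the difference of 0.11 was not called (SE 0.14, adjusted p = 0.511). This comparison turned on scaling: it was 0.44 and called higher under median-of-ratios scaling (adjusted p = 0.0162), and -0.37 and called lower with libraries rescaled to their nuclear genes (adjusted p = 0.0239).

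**Figure D1:**
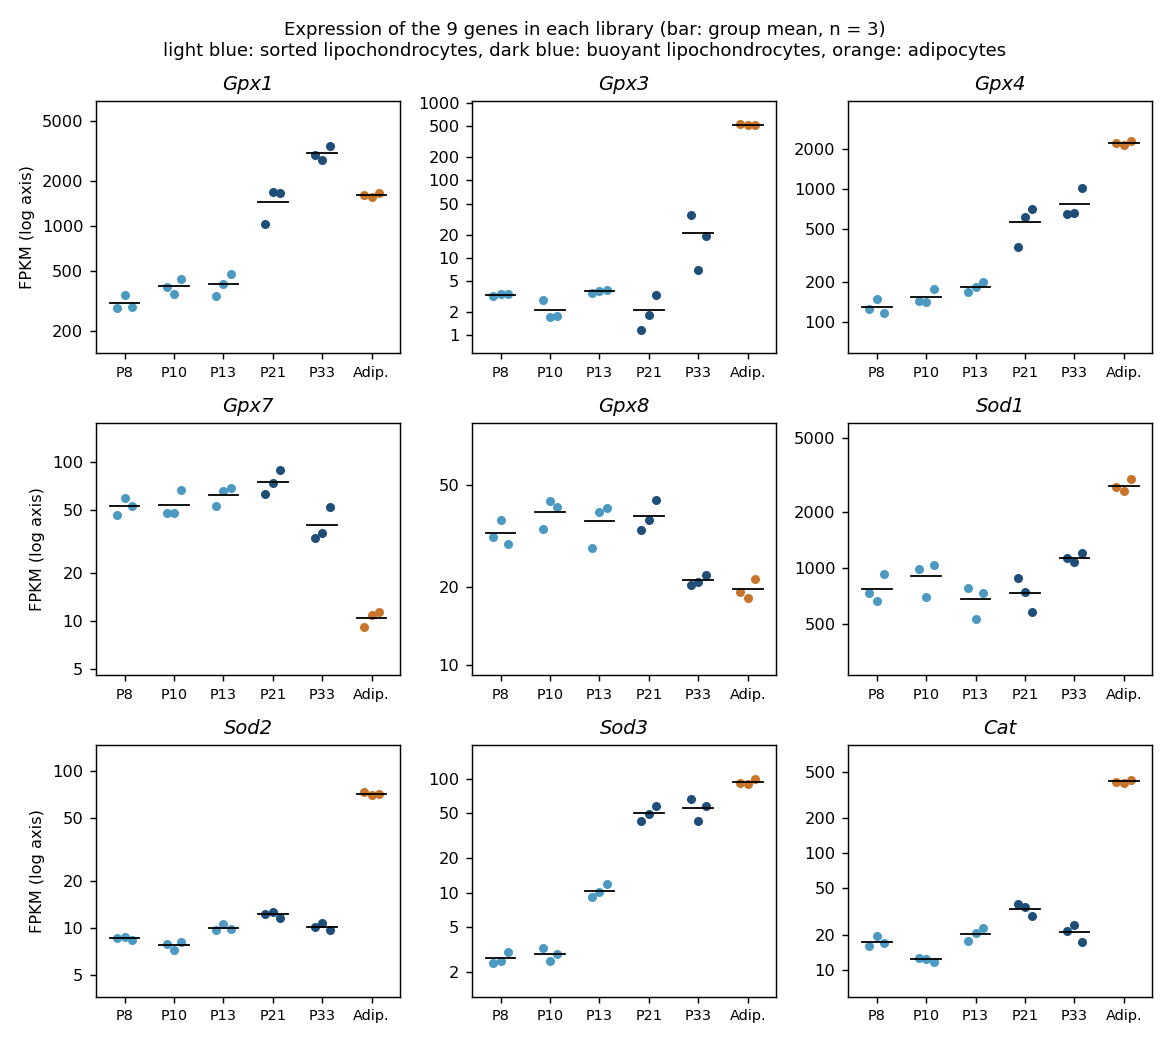
FPKM of each of the 9 genes in every library, on a log axis, by group; the short bar is the mean of 3 libraries. Gpx1, Gpx4 and Sod3 climb over the lipochondrocyte stages, Gpx7 and Gpx8 are lower at P33 than at P21, and Gpx3, Sod2 and Cat are set apart by the adipocyte libraries.

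Sod1 (ENSMUSG00000022982.9, chromosome 16:90220754 to 90226329), the cytosolic copper and zinc enzyme, was the most abundant of the 9 genes from P8 to P13 and in adipocytes. Its 12 libraries from P8 to P21 held 531.2 to 1033.09 FPKM, and the 4 groups overlapped one another in the order of means. The P33 libraries held 1126.84, 1073.87 and 1197.51, above all of them, and the adipocytes held 2707.06, 2575.5 and 3010.18, higher again. P33 was below adipocytes by a log2 difference of -1.28 (SE 0.19, adjusted p = 2.95e-05). The difference of 0.65 between P33 and P21 passed narrowly (SE 0.19, adjusted p = 0.0494). It was lost with a pseudocount of 0.1, with no filter, with nuclear rescaling and in a fit of those 2 groups alone, and without P21 replicate 2 or 3 or any P33 replicate (adjusted p = 0.0756 to 0.18 without 1 library). Its processed pseudogene Gm8566, alike in 97.8% of 465 bases, was listed at 0.88 FPKM or less.

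Sod2 (ENSMUSG00000006818.4, chromosome 17:13006846 to 13040063), the mitochondrial manganese enzyme, varied little among lipochondrocytes. All 15 libraries held 7.2 to 12.66 FPKM, and the adipocytes held 74.21, 70.27 and 71.79. At P33 the libraries held 10.14, 10.67 and 9.6, and the log2 difference from adipocytes was -2.72 (SE 0.08, adjusted p = 7.03e-14). From P13 to P21 the rise was 0.26 (SE 0.08, adjusted p = 0.012). It was not called without P21 replicate 2 (adjusted p = 0.0516), in a fit of those 2 groups alone (adjusted p = 0.08) or with nuclear rescaling (0.06, adjusted p = 0.627), and turned to -0.15 under median-of-ratios scaling. Mitochondrial genes, given above as a share of FPKM, were also higher in adipocytes; their part in the Sod2 difference was not tested.

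Sod3 (ENSMUSG00000072941.5, chromosome 5:52363791 to 52371418), the extracellular enzyme, had the largest relative rise of the 9 genes over the lipochondrocyte stages. The P8 libraries held 2.43, 2.52 and 3.03 FPKM and the P10 libraries 3.29, 2.53 and 2.91. At P13, still among sorted cells, they held 9.11, 10.11 and 12, above all P8 and P10 libraries. The P21 libraries held 42.18, 48.94 and 57.79, the P33 libraries 66.26, 42.93 and 57.12, and the adipocytes 91, 90.79 and 99.9. P8 overlapped P10 and P21 overlapped P33, and the other neighbours lay apart. Sod3 rose by 1.64 from P8 to P13 (SE 0.16, adjusted p = 1.69e-05), by 1.54 from P10 to P13 (SE 0.16, adjusted p = 1.08e-05) and by 2.15 from P13 to P21 (SE 0.16, adjusted p = 8.05e-08). Its mean at P33, 55.4 ± 12, was 20.8 times that at P8, 2.66 ± 0.32, and was below adipocytes by a log2 difference of -0.77 (SE 0.16, adjusted p = 4.29e-04).

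Cat (ENSMUSG00000027187.10, chromosome 2:103453849 to 103485160), the peroxisomal enzyme, was highest at P21 among lipochondrocytes. Its P8 libraries held 16, 19.46 and 17.04 FPKM, the P10 libraries 12.6, 12.51 and 11.76, and the P13 libraries 17.77, 20.88 and 22.77. The P21 libraries held 36.48, 34.52 and 28.76, above all other lipochondrocyte libraries, and the P33 libraries were back at 21.49, 24.05 and 17.36, overlapping P13. The adipocytes held 410.15, 401.99 and 428.3. Cat rose by 0.69 from P10 to P13 (SE 0.13, adjusted p = 0.00152) and by 0.67 from P13 to P21 (SE 0.13, adjusted p = 6.94e-04), and fell by 0.65 from P21 to P33 (SE 0.13, adjusted p = 0.00432). With median-of-ratios scaling the rise to P21 was 0.24 and lost its call (adjusted p = 0.157). At P33 the mean of 21 ± 3.4 was 0.0507 of the adipocyte mean of 413 ± 13 (log2 difference -4.25, SE 0.13, adjusted p = 1.66e-13).

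Set side by side, the 9 genes at P33 were 2 higher than in adipocytes (Gpx1 and Gpx7), 6 lower (Gpx3, Gpx4, Sod1, Sod2, Sod3 and Cat) and 1 not called (Gpx8). Over all genes tested 24.0% were called higher and 44.5% lower, and the median log2 difference was -1.28 for the 9 genes and -0.28 for all genes. Under median-of-ratios scaling, the whole table split into 4138 higher and 4598 lower genes in place of 3315 and 6151. With nuclear rescaling the split was 2305 and 8044. The 9 genes were then 3 higher and 6 lower, and 2 higher and 7 lower, with Gpx8 the gene that moved. The groups also differed in 10 genes of the dissociation response, Fos and Jun among them. Their sum was 69.1 to 91.8 FPKM at P33 and 4273 to 4396 in adipocytes, with 10 of 10 called lower at P33. The part of this in the differences of the 9 genes was not tested.

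The other 4 stages were set against the same 3 adipocyte libraries, so these results are not independent of each other or of P33. At P21, 2 of the 9 were higher and 6 lower (24.5% and 43.1% of all genes). At P13 they were 2 and 7 (17.8% and 54.0%), at P10 2 and 7 (16.8% and 58.9%), and at P8 2 and 7 (19.3% and 52.2%). Gpx7 and Gpx8 were the 2 higher genes at each of these 4 stages, and the median difference of the 9 genes ran from -3.07 at P10 to -1.93 at P21, against -0.73 and -0.25 for all genes. Gpx1 was the gene that changed sides: its difference from adipocytes was -2.39 at P8 (SE 0.18, adjusted p = 1.05e-08), -1.99 at P13 (SE 0.18, adjusted p = 9.92e-08) and -0.18 at P21, not called (SE 0.18, adjusted p = 0.396). With nuclear rescaling it was -0.59 at P21 and called lower (adjusted p = 0.00705), which made 2 higher and 7 lower genes there. Under median-of-ratios scaling the whole table gave 4060 higher and 4531 lower genes at P21 in place of 3379 and 5952, and 4183 and 4527 at P13 in place of 2462 and 7462. At P10 it gave 4478 and 4827 in place of 2326 and 8137, and at P8 4303 and 4713 in place of 2668 and 7211. Nuclear rescaling gave 2438 and 7563 at P21.

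**Figure D2:**
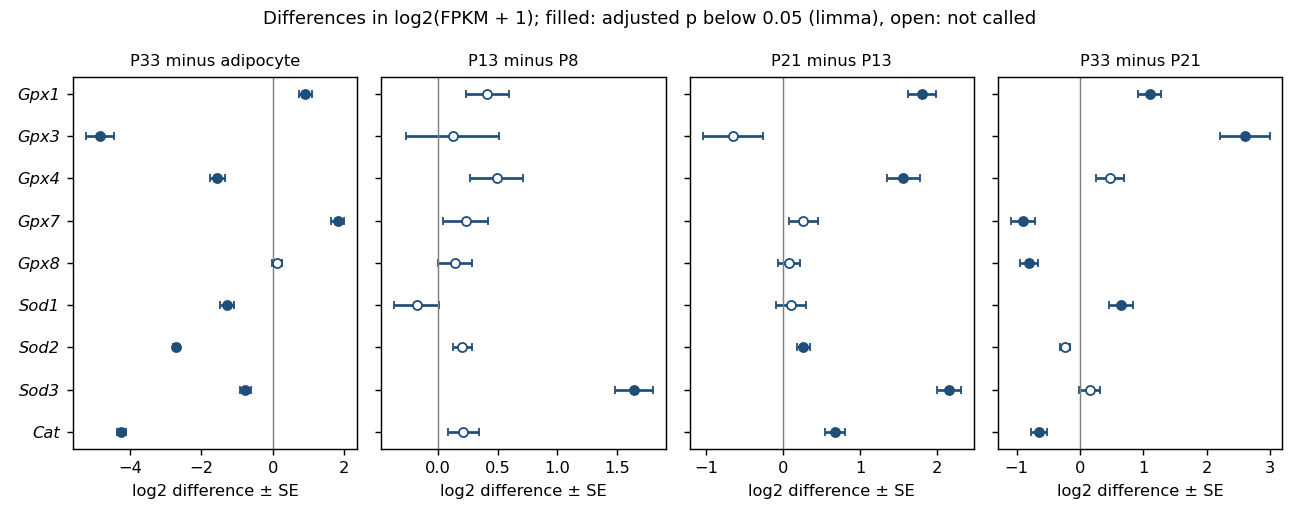
Differences in log2(FPKM + 1) for the 9 genes in 4 comparisons, with SE bars; filled points passed the limma test at an adjusted p below 0.05. Against adipocytes, Gpx3 (-4.86) and Cat (-4.25) lie furthest down and Gpx7 (1.83) furthest up; from P13 to P21, Sod3 (2.15) and Gpx1 (1.80) lead.

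Among the sorted stages few of the 9 genes moved. From P8 to P13 only Sod3 was called, higher, where 2.69% of all genes were called higher and 1.52% lower; the other 8 differed by -0.18 (Sod1) to 0.49 (Gpx4). From P10 to P13 Sod2, Sod3 and Cat were higher and none was lower (18.6% and 4.03% of all genes). The 10 fibroblast and perichondrium markers summed to 6402 to 8499 FPKM at P10 and 2129 to 2792 at P13, with 9 called lower, and their part was not tested. The whole table there split into 1132 higher and 1212 lower genes under median-of-ratios scaling in place of 2567 and 557, and Sod2 was then at 0.09 and not called (adjusted p = 0.54), while Sod1 was called lower (-0.68, adjusted p = 0.0243). From P8 to P10 none was higher and Cat alone was lower, by a log2 difference of -0.47 (SE 0.13, adjusted p = 0.0306; 1.90% and 9.14% of all genes). That call was lost with a pseudocount of 5, in a fit of those 2 groups alone, under median-of-ratios scaling (-0.16, adjusted p = 0.574), and on leaving out P8 replicate 2 or 3 or any P10 replicate. Median-of-ratios scaling turned that table from 262 higher and 1263 lower genes to 503 and 126, and Gpx8 was then called higher (0.60, adjusted p = 0.0286).

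From P13 to P21, Gpx1, Gpx4, Sod2, Sod3 and Cat were higher and none was lower, where 36.0% of all genes were called higher and 7.04% lower. The median was 0.26 for the 9 genes and 0.29 for all genes. Median-of-ratios scaling took that median of all genes to near 0 and gave 2138 higher and 2252 lower genes in place of 4977 and 972, and nuclear rescaling gave 3088 and 1300. Gpx1 (1.35, adjusted p = 7.65e-05), Gpx4 (1.11, adjusted p = 0.00201) and Sod3 (1.72, adjusted p = 1.74e-06) were called under median-of-ratios scaling too. Gpx3, at 3.53 to 3.88 FPKM in P13 and 1.18 to 3.34 in P21, was not called (log2 difference -0.66, SE 0.39, adjusted p = 0.188). Several other signals changed at the same step. The erythroid markers summed to 4.74 to 7.86 FPKM at P13 and to 84.3, 214 and 451 at P21, with Slc4a1 at 0 in all. The macrophage markers summed to 3.75 to 4.99 and then 20, 27.3 and 35.6, and the 7 skeletal muscle markers to 22.4 to 35.9 and then 285, 74 and 509. The fibroblast and perichondrium markers summed to 2129 to 2792 and then 5267 to 9733, with 5 of 10 called higher and 2 lower. Of the chondrocyte markers 5 of 10 were called lower, Col2a1 by a log2 difference of -2.19 (adjusted p = 1.60e-07). The 10 genes of the dissociation response summed to 17063 to 20200 at P13 and to 87.5 to 144 at P21. The part of these in the rises was not tested. P21 replicate 1, the lowest of its group for Gpx1 and Gpx4, was also lowest for most marker sums. These were the erythroid, macrophage, adipocyte, smooth muscle, fibroblast (5267) and chondrocyte sums (14630 against 17378 and 19147). It was not lowest for skeletal muscle or endothelium, and was highest for the dissociation response (144). Without this library the rises were 2.04 for Gpx1 and 1.85 for Gpx4.

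Between P21 and P33, both floated and free of that change in isolation, Gpx1, Gpx3 and Sod1 rose and Gpx7, Gpx8 and Cat fell. The remaining 3 genes were not called, although Sod2 was called lower with no filter (adjusted p = 0.0454), with the 5 FPKM filter (adjusted p = 0.0432) and with nuclear rescaling (-0.32, adjusted p = 0.0292). Over all genes, 2.87% were called higher and 7.17% lower, and nuclear rescaling gave 251 and 1265 genes in place of 397 and 991. These calls rest on the spread shared by all 6 groups: in a fit of P21 and P33 alone, 0 of the 9 genes were called (limma adjusted p = 0.0675 for Gpx8 to 0.207 for Sod1 among the 6), and 154 genes of the whole table in place of 1388. The erythroid sums at P33 were 55.7, 43.6 and 147 FPKM, within or below those at P21, and the skeletal muscle sums 24.9, 49.9 and 194. The macrophage sums were 68.8, 38.2 and 70.2 against 20 to 35.6 at P21, with 6 of 9 markers called higher. Of the chondrocyte markers 7 of 10 were called lower, Col2a1 going from 850.1 to 1002.76 FPKM at P21 to 188.99 to 244.53 at P33. The part of these in the changes was not tested.

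Over the whole span from P8 to P33, Gpx1, Gpx3, Gpx4, Sod1, Sod2 and Sod3 were higher and Gpx8 was lower, where 35.5% of all genes were called higher and 12.8% lower. Age and isolation both differ here. Gpx4 went from 131 ± 17 to 777 ± 210 FPKM, 5.93-fold. The smaller differences depended on scaling: under median-of-ratios scaling Sod1 was at 0.22 and not called (adjusted p = 0.387) and Sod2 at -0.09. Both calls were also lost in a fit of the 2 groups alone, and for Sod1 without P8 replicate 1 or 2 or P33 replicate 1 or 3, and for Sod2 without P8 replicate 1 or 3 or P33 replicate 1 or 2. Gpx7, at -0.40 and not called (SE 0.19, adjusted p = 0.0885), was called lower with the replicate number as a block (adjusted p = 0.0116), under median-of-ratios scaling (-0.74, adjusted p = 0.00365) and without P33 replicate 3 (adjusted p = 0.014). Cat was called higher without P33 replicate 3 (adjusted p = 0.0246). The whole table split into 3081 higher and 3004 lower genes under median-of-ratios scaling and 2958 and 2764 with nuclear rescaling, in place of 4898 and 1762.

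Ratios and shares within a library do not depend on how libraries are scaled, but the sums of FPKM given beside them do. The 9 genes together held 1327 ± 100 FPKM at P8, 2963 ± 440 at P21, 5126 ± 610 at P33 and 7740 ± 380 in adipocytes. Gpx1 took 23.2% of that sum at P8 and 59.5% at P33, and Sod1 57.9% and 22.2%; in adipocytes they took 20.8% and 35.7%. The ratio of Gpx1 to Sod1 was 0.409 ± 0.11 at P8 and 0.62 ± 0.17 at P13, 2.09 ± 0.85 at P21 and 2.68 ± 0.15 at P33, and 0.584 ± 0.027 in adipocytes. All 6 floated lipochondrocyte libraries, at 1.17 to 2.85, were above the other 12. Gpx1 was thus the leading gene of the set in P21 and P33 cells, and Sod1 in the rest.

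The selenocysteine peroxidases, summed over Gpx1, Gpx3 and Gpx4, were 5.17 ± 0.17 times the summed cysteine peroxidases Gpx7 and Gpx8 at P8, 6.06 ± 0.36 times at P13, 17.7 ± 3.2 times at P21, 62.8 ± 4.8 times at P33 and 145 ± 9 times in adipocytes. The P21, P33 and adipocyte ranges lay apart from each other and from the sorted stages. At P33 both sums contributed, since the selenocysteine sum was 3845 ± 540 FPKM against 2022 ± 540 at P21 and the cysteine sum 61.6 ± 11 against 114 ± 18. Gpx7 was 1.37 to 1.98 times Gpx8 in the group means of lipochondrocytes and 0.533 ± 0.062 times in adipocytes. The ratio of Cat to Gpx1 compares transcripts of a peroxisomal and a cytosolic enzyme. It was 0.0571 ± 0.0016 at P8, 0.00702 ± 0.0019 at P33 and 0.257 ± 0.0015 in adipocytes. The 3 P33 libraries had the lowest values of all 18.

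**Figure D3:**
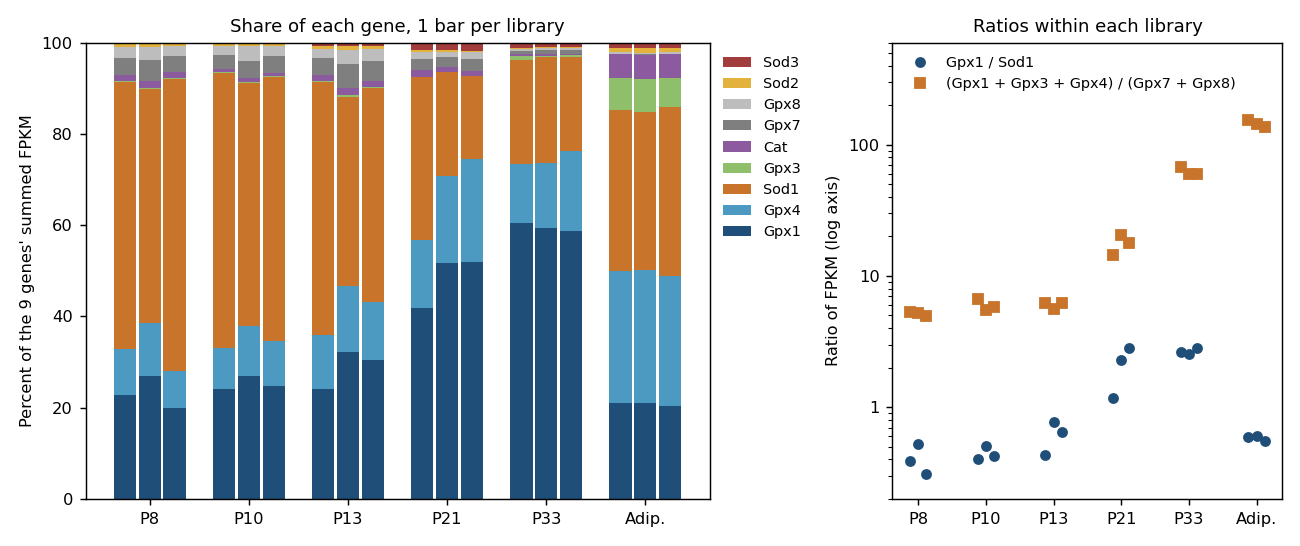
Left, the share of each gene in the 9 genes' summed FPKM, 1 bar per library; right, 2 ratios within each library on a log axis. Gpx1 fills 59.5% of the sum at P33, and the ratio of selenocysteine to cysteine peroxidases steps from 5.17 at P8 up to 62.8 at P33 and 145 in adipocytes.

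The remaining peroxidases of the family were near 0: Gpx5 and Gpx6 were listed at 0 in all 18 libraries, Gpx2 reached 0.42 FPKM at most, and none entered the tests. Around the 9 genes, 10 lists of neighbouring pathways were described by how many tested members were called. The shares of all genes called higher and lower, to be read beside these counts, were 24.0% and 44.5% for P33 against adipocytes, 2.69% and 1.52% for P13 against P8, 36.0% and 7.04% for P21 against P13, and 2.87% and 7.17% for P33 against P21. The peroxiredoxins reduce peroxides through thioredoxin. Of 6, 1 was higher and 4 lower at P33 than in adipocytes (median -0.76), 3 were higher and 1 lower at P21 than at P13 (median 0.29), and 0 were higher and 4 lower at P33 than at P21 (median -0.49). Under median-of-ratios scaling the last 2 comparisons gave 2 higher and 2 lower, and 0 and 2. Prdx4, of the endoplasmic reticulum, was 0.91 above adipocytes (adjusted p = 6.77e-06), and mitochondrial Prdx3 was lower (-2.24, adjusted p = 1.03e-09). Cytosolic Prdx6, which also uses glutathione, rose by 0.85 from P13 to P21 (adjusted p = 3.19e-04) and fell by 0.86 from P21 to P33 (adjusted p = 0.00147). Prdx1 fell by 0.80 in the second interval (adjusted p = 0.00165). Gpx1 rose in both intervals.

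Genes of the thioredoxin and glutaredoxin system were lower at P33 than in adipocytes in 10 of 11 and higher in 0 (median -1.51). The list holds the thioredoxins that serve the peroxiredoxins, but also glutaredoxins and Txnip (-2.18). Mitochondrial Txnrd2 was at -2.37 (adjusted p = 5.80e-09). At P21, 4 of 11 were higher and 1 lower than at P13, near the 36.0% and 7.04% of all genes, and under median-of-ratios scaling 1 and 2. The next list holds genes that make or regenerate glutathione, the substrate of Gpx1, Gpx3 and Gpx4, and the NADPH it needs. At P33, 12 of 12 were lower than in adipocytes (median -1.85), led by Me1 (-4.94, adjusted p = 2.98e-11) and G6pdx (-4.37, adjusted p = 4.28e-14). Both are NADPH sources that also serve fatty acid synthesis. Of the same 12, 4 were higher at P13 than at P8, 6 were higher at P21 than at P13 and 6 were lower at P33 than at P21, with 0 in the opposite direction each time. The count at P13 was 1 with nuclear rescaling. Me1 rose by 1.98 to P21 (adjusted p = 8.14e-06) and fell by 1.60 to P33 (adjusted p = 3.51e-04). Idh1 fell by 1.74 from P21 to P33 (adjusted p = 3.17e-05), from 80.5 to 24.4 FPKM.

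Glutathione transferases, which conjugate glutathione to electrophiles, were lower than in adipocytes in 11 of 13 and higher in 1 (median -2.26). Mgst1, a membrane member with peroxidase activity, went furthest down (-6.50, adjusted p = 1.72e-14; 24.9 against 2308 FPKM), and Gstm5 was the higher gene (3.18, adjusted p = 8.73e-08; 647 against 65 FPKM). From P13 to P21, 11 of 13 were higher and 0 lower (median 1.63), and 10 and 0 under median-of-ratios scaling. Gstz1 rose by 4.03 there (adjusted p = 6.66e-09) and fell by 1.81 to P33 (adjusted p = 1.39e-04).

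Of 8 partners of the dismutases and sources of superoxide, 4 were higher and 3 lower at P33 than in adipocytes (median 0.10), but 0 and 4 with nuclear rescaling. Xdh, xanthine dehydrogenase (-2.88, adjusted p = 5.40e-15), and Cybb, the phagocyte oxidase (-2.41, adjusted p = 1.05e-12), were lower, both below 1 FPKM at P33. Ccs, the copper chaperone of Sod1, and Atox1, a copper carrier, rose by 0.80 (adjusted p = 7.90e-04) and 1.10 (adjusted p = 1.11e-04) from P13 to P21. Sod1 itself differed by 0.10 there and was not called (SE 0.19, adjusted p = 0.706). With median-of-ratios scaling Ccs was at 0.36 (adjusted p = 0.118).

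The machinery that inserts selenocysteine, which Gpx1, Gpx3 and Gpx4 need, was lower than in adipocytes in 6 of 8 genes and higher in 0 (median -1.07). Sephs2, the selenophosphate synthetase, was at 4.51 against 65.5 FPKM (-3.60, adjusted p = 2.74e-11). Over the step from P13 to P21, in which Gpx1 and Gpx4 rose, 2 of 8 were higher and 0 lower (median 0.15), and 0 and 1 under median-of-ratios scaling. Of 10 other genes of selenium biology, 4 were higher and 4 lower than in adipocytes (median 0.11). Selm, a selenoprotein of the endoplasmic reticulum, was higher (3.53, adjusted p = 1.70e-08), and Sepp1, the plasma selenium carrier, was lower (-2.86, adjusted p = 2.04e-12) although it had risen by 2.20 from P13 to P21 (adjusted p = 8.34e-10).

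Peroxisome genes, the company of catalase, were lower in lipochondrocytes. At P33, 12 of 14 biogenesis genes (median -1.85) and 12 of 14 enzymes (median -2.39) were lower than in adipocytes and 0 higher. Pex16 was at -3.58 (adjusted p = 4.46e-11) and Acaa1b, the thiolase, at -6.93 (adjusted p = 1.12e-14). From P13 to P21, the interval in which Cat rose, 8 of the biogenesis genes and 12 of the enzymes were higher and 0 lower, and 3 and 7 under median-of-ratios scaling. From P21 to P33, when Cat fell, 0 and 3 were lower and 0 higher.

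The endoplasmic reticulum folding genes, the setting of Gpx7 and Gpx8, were 2 higher and 6 lower of 11 at P33 against adipocytes (median -0.45), near the 24.0% and 44.5% of all genes. P4hb, protein disulfide isomerase (0.79, adjusted p = 3.90e-06), and Txndc5 (0.87, adjusted p = 2.57e-06) were higher and Ero1l, the oxidase that makes peroxide there, was lower (-1.43, adjusted p = 7.79e-08). Under median-of-ratios scaling the counts were 3 and 3, and with nuclear rescaling 2 and 9. At P21, 5 were lower than at P13 and 1 was higher, and P4hb fell by 0.88 (adjusted p = 6.36e-06). The higher gene, Qsox1 (0.31, adjusted p = 0.0251), was at -0.12 under median-of-ratios scaling. From P21 to P33, 6 of 11 were lower and 0 higher (median -0.54), among them Pdia6 (-1.25, adjusted p = 9.09e-05) and Pdia4 (-1.23, adjusted p = 0.00104), over the interval in which Gpx7 and Gpx8 also fell. In the 2-group fit of P21 and P33 the calls of Gpx7 and Gpx8 were lost, as given above.

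**Figure D4:**
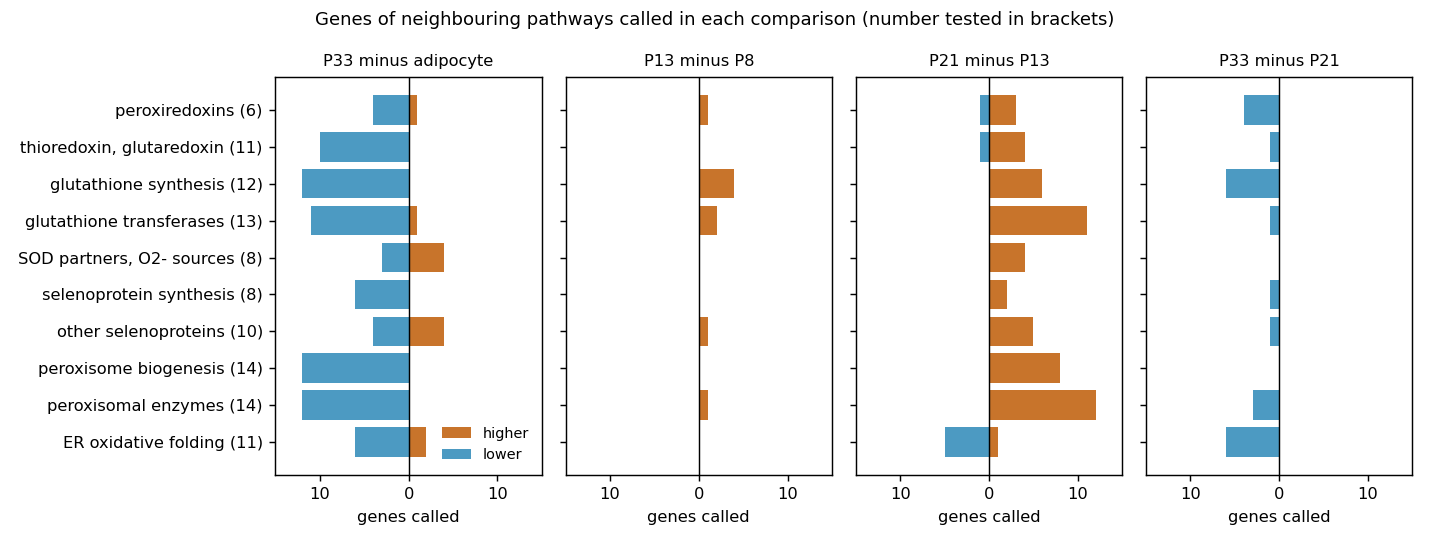
Number of tested genes called higher (right of 0) or lower (left of 0) in 10 pathway lists, in 4 comparisons. Peroxisomal, glutathione and thioredoxin lists lie to the left against adipocytes, and glutathione transferases (11 of 13) and peroxisomal enzymes (12 of 14) lie to the right from P13 to P21.

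Across the 15 lipochondrocyte libraries, the levels of Gpx1 and Gpx4 had a Pearson r of 0.98 on the log2 scale, and 0.89 after each group's mean was taken away. Gpx4 and Sod3 had an r of 0.95, Sod2 and Cat 0.95, Gpx1 and Sod3 0.92, and Gpx7 and Gpx8 0.77. After the group means were taken away these were 0.41, 0.54, 0.59 and 0.67. On that measure all pairs ran from -0.68 (Gpx8 and Sod1) to the 0.89 of Gpx1 and Gpx4. Gpx4 and Gpx7 reached 0.86, with an r of -0.02 before, and Gpx3 and Sod3 reached 0.86, with 0.49 before. Within groups, Gpx3 spread most at P33, where its highest library was 5.16 times its lowest, against 2.83 times at P21. The r of Gpx3 and Sod3 on that measure therefore leans on the P33 libraries. All these r values are descriptions over libraries that differ in depth, isolation and stage. Before group means were taken away, they span the step from P13 to P21, where age and isolation change together. Among 3545 genes with a mean of at least 10 FPKM over the same libraries, the courses most like Gpx1 were those of Gsn (r = 0.990), Fmod (0.988) and Timp3 (0.986). For Gpx4 they were Reep5 (0.990), Cyb5r3 (0.987) and Gpha2 (0.987), for Sod3 Lims2 (0.988), Fuca1 (0.986) and Pla2g5 (0.984), and for Cat Rftn2 (0.980), Mat2a (0.974) and Golga7 (0.972). Sod2 was nearest to Prdx6 (0.975), Urah (0.971) and Psph (0.969), Prdx6 being the peroxiredoxin described above. Likeness was lower for Gpx7 (Gorasp2, 0.907), Gpx8 (0.921 for CAAA01093177.1), Gpx3 (1110007C09Rik, 0.821) and Sod1 (Bri3, 0.820).

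The promoters of Gpx1 and Sod1 are shown because these genes traded places as the leading member of the set. Each line gives the 100 bases before the start of transcription from RefSeq (GRCm38.p6), 5′ to 3′ on the gene's strand, with matches to the core of the antioxidant response element (TGACNNNGC, either strand) and to the TATA box (TATAAA, either strand) in capitals.
Gpx1: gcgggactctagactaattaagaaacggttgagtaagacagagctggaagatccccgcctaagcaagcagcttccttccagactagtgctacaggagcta
Sod1: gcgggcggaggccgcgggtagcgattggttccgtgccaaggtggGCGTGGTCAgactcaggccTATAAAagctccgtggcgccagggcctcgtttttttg
The windows are chr9:108338980-108339079 (plus) and chr16:90220662-90220761 (plus). RefSeq and GENCODE place the starts differently. The Gpx1 window lies wholly inside the GENCODE gene, which begins at 108338903, while that of Sod1 lies almost wholly before its GENCODE start at 90220754. Sod1 held both motifs, the response element core on the opposite strand, and Gpx1 held neither. Over windows of 300 bases around the RefSeq start (250 before and 50 after), found for 8 of the 9 genes, only Sod1 had a match to either motif. The windows of Gpx3 and Sod2 lie wholly, and those of Gpx1 and Gpx7 mostly, inside the GENCODE genes. Sequence before the GENCODE start was thus searched in part or not at all for these genes. Of all 32851 promoters of that length in the table, 12.4% held the response element core and 13.6% the TATA box. The GC box (GGGCGG, either strand), which 35.7% of promoters held, was found in 7 of the 8 genes, Gpx8 being without one. These are matches of letters and describe no binding.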

How the data were processed

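RNA was sequenced from 6 groups of 3 libraries. The aligner was STAR 2.4.2a and the genome mm10, per the submitters' processing notes; neither the program that calculated FPKM nor its annotation is given in the sources used here. The authors deposited FPKM per gene and library, and a table with the count of reads per library and, in percent, how many aligned and were paired (100% paired), per the file headers. Without gene counts no counting interval can be had, and a value of 0 does not show absence. No 2 libraries held identical values (0 pairs), and 18837 genes were at 0 in all.

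FPKM were changed to log2(FPKM + 1), which understates changes of low genes. The filter kept genes that reached 1 FPKM in 3 or more libraries. A model with 6 group means was fitted to 18 libraries with limma 3.58.1 (R 4.3.3; moderated, mean-variance trend, two-sided), with Benjamini-Hochberg adjustment within each of 11 comparisons, and was tested on simulated data. The median SE was 0.17. Alternatives were other pseudocounts (0.1 and 5), filters (none, 5 FPKM), median-of-ratios scaling, rescaling to genes outside mitochondrial DNA, fits of the 2 groups compared, no trend, a replicate block, and leaving out each library.

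The 9 genes and all lists were chosen with earlier results of these data known. All 9 genes were to be described in every group. From each list the text takes its counts and up to 2 called genes with the largest rise and fall in 4 comparisons (P33 minus adipocytes, P13 minus P8, P21 minus P13, P33 minus P21); a few of these are printed. Likeness is the 3 genes with the highest Pearson r over 15 lipochondrocyte libraries. Of 194 listed genes, 185 matched by symbol, 7 by an older symbol and 2 (Selenof, Selenoh) not. Coordinates and coding sequences are from GENCODE M21 (GRCm38), in which no exon of another gene overlapped the 9 genes (0 found); near copies were sought with BLAST (at least 400 bp and 90% identity). Promoter sequences are from RefSeq; Sod3 had no entry. Per-sample columns left unused numbered 0. Plots were drawn with matplotlib 3.10.9 in Python 3.11.15.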

Additional observations from a re-analysis of the deposited data

How the results depend on the processing

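The 9 genes in 11 comparisons gave 99 results. Of 594 values with 1 library left out, 563 kept their direction and side of the threshold, 19 lost a call, 2 gained one and 10 changed sign; of 891 values under the 9 other settings, the numbers were 842, 21, 11 and 17. Without the mean-variance trend 99 of 99 were kept, and with median-of-ratios scaling 80. The cause was not tested for any of these changes. Counts of the 9 genes called that moved by over 1.5 times were those for P10 minus P8 (1, but 0 with a pseudocount of 5 or only the 2 groups compared, and 0 to 1 with 1 library left out), P21 minus P13 (5, but 3 under median-of-ratios scaling; 4 to 5 with 1 library left out) and P33 minus P21 (6, but 0 with only the 2 groups compared; 5 to 6 with 1 library left out). For P33 minus P8 the count was 7, and 5 to 8 with 1 library left out.

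Differences that changed sign under median-of-ratios scaling were Gpx1 (0.12), P21 minus Adipocyte; Sod2 (0.17), P10 minus P8; Gpx1 (-0.24), Gpx4 (-0.03) and Gpx7 (-0.06), P13 minus P10; Gpx7 (-0.18), Gpx8 (-0.37), Sod1 (-0.35) and Sod2 (-0.15), P21 minus P13; and Sod2 (-0.09) and Cat (-0.09), P33 minus P8. With rescaling to nuclear genes they were Gpx8 (-0.37), P33 minus Adipocyte; Gpx7 (-0.01), P10 minus P8; Gpx8 (-0.14) and Sod1 (-0.11), P21 minus P13; and Sod2 (-0.09) and Cat (-0.09), P33 minus P8. With 1 library left out, Gpx1 ran from -0.30 to 0.05 (P21 minus Adipocyte) and from -0.08 to 0.17 (P13 minus P10), Gpx7 from -0.14 to 0.10 (P10 minus P8), Gpx8 from -0.23 to 0.03 (P13 minus P10) and from -0.09 to 0.16 (P21 minus P13), and Sod1 from -0.07 to 0.26 (P21 minus P13). Of all these, Sod2 in P21 minus P13 and in P33 minus P8 was called in the fit as reported.

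Genes called over the whole table moved by over 1.5 times as follows. P10 minus P8 went from 1525 to 274 with only the 2 groups compared, 629 under median-of-ratios scaling, 985 with no filter, 974 with a pseudocount of 5, and 505, 768, 633 and 914 without P10 replicate 1, P10 replicate 2, P8 replicate 2 and P8 replicate 3. P13 minus P8 went from 581 to 326 with only the 2 groups, 339 without P13 replicate 3 and 382 without P8 replicate 1, and P13 minus P10 from 3124 to 1921 without P10 replicate 1. P33 minus P21 went from 1388 to 154 with only the 2 groups and 894 without P21 replicate 2. With a 5 FPKM filter, which tests 8245 genes, the comparisons with adipocytes went from 9466 to 6189 (P33), 9331 to 6150 (P21), 9924 to 6552 (P13), 10463 to 6837 (P10) and 9879 to 6547 (P8).

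Of 45 pairs of same-numbered libraries from different groups, 13 deviated together (r over 0.1). The r ran from -0.168 to 0.306, so the numbers were not taken as pairs. With the replicate number as a block, 98 of 99 results were kept and Gpx7 in P33 minus P8 became called (log2 difference -0.40, limma adjusted p = 0.0116). Depth per gene is unknown from FPKM, and 3 libraries per group limit the precision.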
